A study of Mus musculus with 32 samples.

Results

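The genes described are 10 costimulatory and checkpoint molecules that macrophages use to talk to T cells and to other leukocytes, out of 25067 genes in the count table. They are the CD28 family ligands Cd80, Cd86 and Icosl, the checkpoint ligands Cd274, Pdcd1lg2 and Lgals9, and the surface receptors and markers Cd40, Cd83, Slamf7 and Cd200r1. They form a functional set and were chosen by name, with earlier results of these data known. Each RefSeq identifier was mapped to a gene symbol, and the transcript with the highest mean count stood for the gene. All 10 were found, and all 10 passed the filter on low values used for testing.

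A T cell that meets antigen on a macrophage or dendritic cell needs a second signal. CD80 and CD86 give it through CD28 and can withdraw it through CTLA-4, ICOS ligand sustains helper T cells through ICOS, and CD40 receives the help that an activated T cell returns. PD-L1 (Cd274), PD-L2 (Pdcd1lg2) and galectin-9 (Lgals9) restrain T cells, CD200R1 restrains the myeloid cell itself, and CD83 and SLAMF7 are surface proteins of activated antigen-presenting cells. Bacterial lipopolysaccharide (LPS), sensed by TLR4, is a classical inducer of several of these genes in macrophages.

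RNA was measured in 32 libraries of bone marrow-derived macrophages (BMDMs), which are macrophages grown in culture from bone marrow. The marrow came from male mice of 6 to 12 weeks, labelled C57Bl6/J, and was cultured for 7 days with L929-conditioned medium, a source of macrophage growth factor. BMDM-WT came from wild-type mice, and BMDM-Nur77-KO from littermates that lack Nur77, the nuclear receptor encoded by Nr4a1, in the whole body. The knockout line arose from a loxP-flanked Nr4a1 allele deleted by a Cre recombinase under the cytomegalovirus promoter, and the methods state that the knockout mice used no longer carried Cre, whereas the sample labels give their genotype as cre. Each genotype was left without LPS (0 h) or given 100 ng/ml LPS for 1, 5 or 18 h, with 4 libraries in each of the 8 groups. The number of mice behind the libraries is not given in the sources used here, so p-values measure the spread between these libraries, which may be technical.

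Library totals over all genes ran from 8742362 to 15780926 counts, with a median of 11847140. Levels are given as CPM, counts scaled to a common library total with TMM factors, and levels of different genes are compared only as RPKM, which also divides by transcript length. A gene is called changed when its adjusted p is under 0.05 in edgeR's quasi-likelihood test over 11279 genes. Of the libraries, replicate 1 of BMDM-Nur77-KO at 5 h stood furthest from the other libraries of its group, by a root mean square log2 difference of 0.618 over all genes tested, followed by replicate 4 of BMDM-Nur77-KO at 18 h with 0.443. The next were replicates 4 and 3 of BMDM-Nur77-KO at 5 h with 0.367 and 0.344, and the other libraries lay between 0.146 and 0.309. Results that rest on the 2 furthest libraries are therefore also given without them.

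The targeted gene was lower in the knockout before and early after LPS. At 0 h, Nr4a1 had 19.3, 15.4, 25.7 and 18.1 CPM in BMDM-WT and 4.91, 4.60, 4.43 and 6.98 CPM in BMDM-Nur77-KO. At 1 h, it had risen to 483, 484, 358 and 420 CPM in BMDM-WT and to 242, 179, 146 and 193 CPM in BMDM-Nur77-KO. The groups did not overlap at either time, with log2 fold changes of -1.91 ± 0.19 and -1.20 ± 0.15 (SE). Nr4a1 reads thus remained in the knockout, and at 5 and 18 h no library of either genotype had more than 1.06 CPM. Which exons were deleted is not given in the sources used here, and reads outside them do not check the deletion.

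The libraries carried the markers of their labelled cell type. All 6 macrophage markers passed the filter on low values, with a summed level of 5066 to 9147 CPM per library. None of the 5 fibroblast markers passed it. Their summed level was 0.228 to 0.434 CPM in BMDM-WT at 0 h and 2.88 to 3.66 CPM at 5 h, with no more than 3.92 CPM in any library and with Col1a2 and Col3a1 at no more than 3 counts in each. The 4 mast cell markers summed to no more than 0.544 CPM. In bulk RNA, a change in the number of cells of a type and a change in RNA per cell cannot be told apart.

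Before LPS, the members spanned a wide range of levels in BMDM-WT, and the order was not that of the stimulated cell. Cd200r1 was highest per length with 80.8 ± 8.35 RPKM (SD, n = 4), followed by Lgals9 with 56.4 ± 4.61, Slamf7 with 35.0 ± 2.61 and Cd83 with 34.0 ± 6.31 RPKM. Cd274 had 20.3 ± 2.24 RPKM, Cd86 11.2 ± 1.56 and Cd80 9.27 ± 1.37. Cd40 and Icosl were low, with 1.51 ± 0.14 and 1.49 ± 0.22 RPKM, and Pdcd1lg2 was lowest with 0.155 ± 0.084 RPKM. At 5 h of LPS, Cd274 led with 1052 ± 25.8 RPKM, ahead of Slamf7 with 680 ± 26.0 and Cd40 with 599 ± 11.6 RPKM. Cd200r1, first at 0 h, was now the seventh of the 10.

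Among the CD28 family ligands, Cd80 (chr16:38457430-38495958, GRCm38, plus strand) made the sharpest peak at 5 h and returned to its starting level. Its levels in BMDM-WT were 19.2, 14.7, 15.2 and 14.0 CPM at 0 h, 27.7, 31.1, 25.0 and 27.5 CPM at 1 h, 43.4, 41.8, 45.8 and 47.2 CPM at 5 h, and 12.8, 14.8, 15.8 and 14.2 CPM at 18 h. The knockout libraries had 18.4, 21.7, 18.7 and 18.0 CPM at 0 h, 24.8, 27.5, 24.4 and 26.4 CPM at 1 h, 100, 86.2, 72.8 and 72.7 CPM at 5 h, and 22.3, 20.4, 19.4 and 26.5 CPM at 18 h. The genotypes overlapped at 0 and 1 h and were separate at 5 and 18 h, where every knockout library was higher. The log2 fold change of BMDM-Nur77-KO against BMDM-WT was 0.90 ± 0.11 at 5 h (adjusted p = 4.1e-07) and 0.62 ± 0.12 at 18 h (adjusted p = 1.5e-04). Without replicate 1 of the 5 h knockout it was 0.79 at 5 h, and without replicate 4 of the 18 h knockout 0.52 at 18 h, both still called. Cd80 has 2 RefSeq transcripts in the table whose counts are not the same, and its length was taken from the other transcript of the gene, so its RPKM is uncertain.

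Cd86 (chr16:36568956-36666158, minus strand), the other ligand of CD28, rose most between 1 and 5 h and was still above its 0 h libraries at 18 h. In BMDM-WT it had 25.4, 24.9, 33.1 and 30.3 CPM at 0 h, 40.7, 39.5, 34.4 and 38.7 CPM at 1 h, 277, 242, 247 and 297 CPM at 5 h, and 164, 190, 193 and 158 CPM at 18 h. In BMDM-Nur77-KO it had 23.3, 22.1, 21.1 and 19.8 CPM at 0 h, 26.7, 25.4, 29.7 and 24.8 CPM at 1 h, 347, 281, 226 and 244 CPM at 5 h, and 307, 303, 300 and 426 CPM at 18 h. The knockout was lower in every library at 0 and 1 h, overlapped the wild type at 5 h and was higher in every library at 18 h. The log2 fold changes at 0, 1 and 18 h were -0.40 ± 0.13 (adjusted p = 0.042), -0.53 ± 0.13 (adjusted p = 0.0085) and 0.92 ± 0.12 (adjusted p = 6.9e-07). The call at 0 h was lost when replicate 3 of BMDM-WT at 0 h was left out (log2 fold change -0.32, adjusted p = 0.16) and, with the same direction, without replicate 4 of BMDM-WT or any 1 of the 4 knockout libraries at 0 h, where the adjusted p ran from 0.059 to 0.11. At 18 h the value without replicate 4 of the knockout was 0.78.

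Icosl (chr10:78069368-78079525, plus strand), which encodes ICOS ligand, changed sides in time. Before LPS its levels were 4.49, 3.63, 3.77 and 4.92 CPM in BMDM-WT and 2.36, 2.77, 2.52 and 2.54 CPM in BMDM-Nur77-KO. At 5 h they were 46.4, 48.4, 47.0 and 45.5 CPM in BMDM-WT against 20.2, 29.5, 32.3 and 33.1 CPM in the knockout. At 18 h they were 31.2, 28.1, 23.3 and 32.3 CPM against 45.4, 44.3, 38.2 and 33.3 CPM. Every knockout library was lower at 0, 1 and 5 h and every one was higher at 18 h. In time order, the log2 fold changes were -0.70 ± 0.19, -0.81 ± 0.14, -0.70 ± 0.13 and 0.49 ± 0.13, with adjusted p of 0.010, 2.4e-04, 2.9e-04 and 0.0055. With total counts in place of TMM, a scaling that moves the median of all genes tested at 18 h from -0.01 to -0.12, the 18 h value was 0.38 (adjusted p = 0.055).

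**Figure D1:**
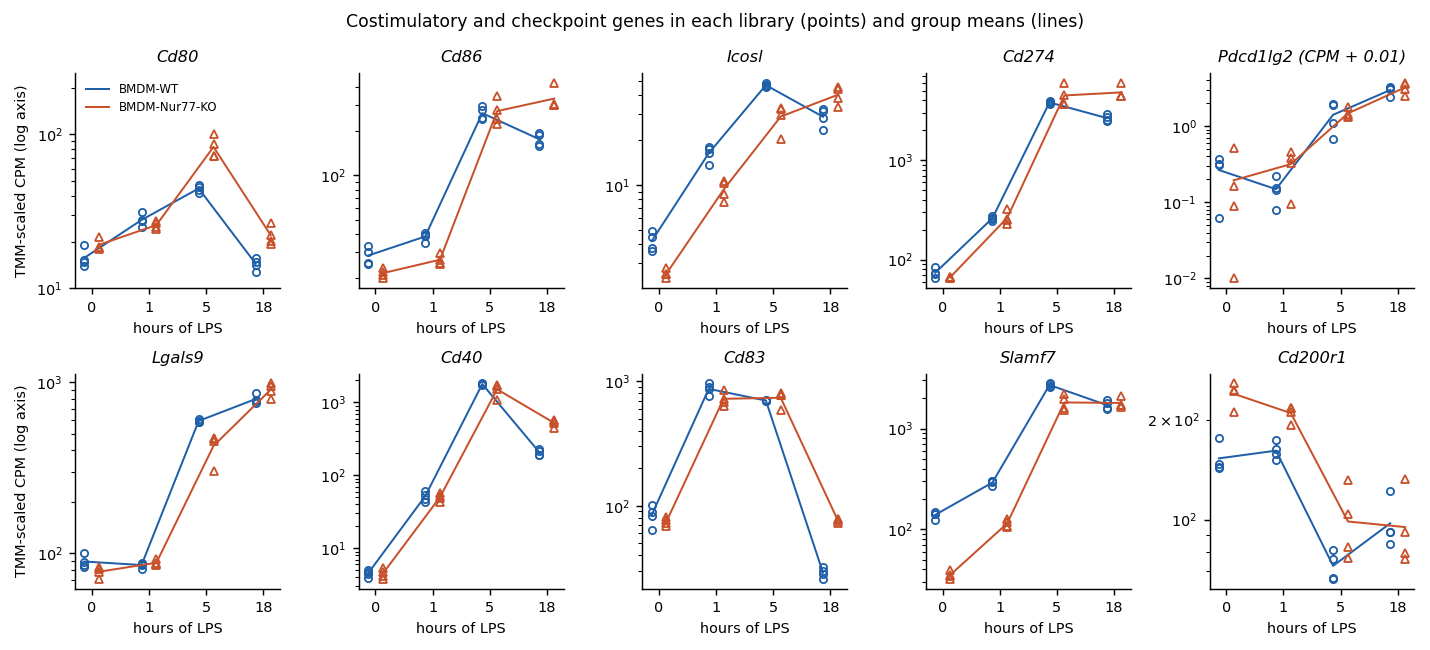
TMM-scaled CPM (log axis) of the 10 genes in each library against hours of LPS; circles are BMDM-WT, triangles BMDM-Nur77-KO, 4 libraries per group, and lines join the group means. For Pdcd1lg2 a small constant, given in its panel title, was added so that a library at 0 can be drawn. Slamf7 and Icosl start lower in the knockout, and Cd40, Cd83, Cd86 and Cd274 end higher in it at 18 h.

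The checkpoint ligand Cd274 (chr19:29362107-29388095, plus strand), which encodes PD-L1, reached the highest level per length of the 10 at 5 and 18 h. In BMDM-WT it went from 84.2, 64.5, 74.1 and 71.8 CPM at 0 h to 273, 264, 246 and 259 CPM at 1 h and 3707, 3755, 3902 and 3873 CPM at 5 h, and then to 2461, 2709, 2918 and 2531 CPM at 18 h. In BMDM-Nur77-KO the 0 h levels were 65.1, 65.4, 67.4 and 66.8 CPM, the 5 h levels 5970, 4554, 3701 and 3676 CPM, and the 18 h levels 4384, 4451, 4414 and 5971 CPM. The groups overlapped at 0, 1 and 5 h and were separate at 18 h, with the knockout higher. At this last time the log2 fold change was 0.86 ± 0.12 (adjusted p = 3.0e-06), and 0.73 without replicate 4 of the knockout. At 5 h it was 0.23 ± 0.12 and did not pass the test (adjusted p = 0.15). Leaving out replicate 1 of the 5 h knockout gave 0.06 (adjusted p = 0.76), and leaving out replicate 4 gave 0.32 (adjusted p = 0.048).

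Its neighbour Pdcd1lg2 (chr19:29410919-29472927, plus strand), which encodes the second ligand of PD-1, lies 22.8 kb away with 0 annotated genes between them, and was barely expressed. It had 1 to 5 counts per library in BMDM-WT at 0 h and 28 to 38 at 18 h, where the levels were 3.11, 3.04, 2.43 and 3.27 CPM. The knockout had 0 to 8 counts at 0 h and 3.66, 2.49, 3.08 and 3.59 CPM at 18 h. The genotypes overlapped at all 4 times, and no difference between them was called. At 0 and 1 h the counts were too few to show one, and at 18 h the log2 fold change was 0.11 ± 0.26 (adjusted p = 0.8). Pdcd1lg2 passed the filter on low values only through its 18 h groups. The filter itself thus favours a rise to 18 h for it, and its rises to 18 h below are a description.

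Lgals9 (chr11:78962979-78984924, minus strand), which encodes galectin-9, was highest at the last time in both genotypes. Its levels in BMDM-WT were 85.7, 83.5, 100 and 88.6 CPM at 0 h, 592, 609, 588 and 581 CPM at 5 h, and 787, 864, 759 and 774 CPM at 18 h. In the knockout they were 77.6, 70.9, 80.4 and 83.1 CPM at 0 h, 304, 465, 455 and 472 CPM at 5 h, and 948, 983, 881 and 794 CPM at 18 h. Every knockout library was lower at 0 and 5 h, and the groups overlapped at 1 and 18 h. The log2 fold change was -0.48 ± 0.09 at 5 h (adjusted p = 5.2e-04), and -0.35 without the low replicate 1. At 18 h it was 0.18 ± 0.09 and did not pass the test (adjusted p = 0.18).

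Cd40 (chr2:165055614-165071654, plus strand), the receptor for the T cell's CD40 ligand, had the largest LPS response of the 10. In BMDM-WT its levels were 3.96, 4.66, 4.98 and 4.49 CPM at 0 h, 61.8, 54.4, 47.7 and 42.7 CPM at 1 h, 1804, 1830, 1767 and 1754 CPM at 5 h, and 193, 231, 187 and 216 CPM at 18 h. The mean at 5 h was 396 times that at 0 h. In the knockout it had 3.82, 4.67, 4.13 and 5.40 CPM at 0 h, 1096, 1513, 1702 and 1742 CPM at 5 h, and 531, 568, 550 and 441 CPM at 18 h. At 18 h the lowest knockout library stood above the highest wild-type library, and the mean level was 34.5% of that at 5 h in BMDM-Nur77-KO and 11.6% in BMDM-WT. The difference between the genotypes at 18 h was a log2 fold change of 1.34 ± 0.12 (adjusted p = 7.6e-10). At 5 h the knockout was lower in every library, by a log2 fold change of -0.24 ± 0.12 that did not pass the test (adjusted p = 0.13). Without replicate 1 of the 5 h knockout this value was -0.12.

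Cd83 (chr13:43785112-43803133, plus strand), a marker of mature antigen-presenting cells, had its highest mean level at 1 h in BMDM-WT and at 5 h in BMDM-Nur77-KO. Its levels in BMDM-WT were 82.1, 64.2, 102 and 88.3 CPM at 0 h, 962, 894, 760 and 858 CPM at 1 h, 688, 708, 711 and 691 CPM at 5 h, and 29.9, 32.0, 28.2 and 25.9 CPM at 18 h. In the knockout they were 80.7, 68.5, 76.8 and 73.2 CPM at 0 h, 856, 680, 636 and 717 CPM at 1 h, 584, 781, 806 and 777 CPM at 5 h, and 78.5, 75.9, 78.1 and 72.7 CPM at 18 h. The wild type thus ended below all of its 0 h libraries, whereas the knockout ended within the range of its own. The 18 h groups were far apart, with a log2 fold change of 1.40 ± 0.12 (adjusted p = 1.4e-10). The genotypes overlapped at 0, 1 and 5 h, and none of those differences passed the test.

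Slamf7 (chr1:171632403-171653037, minus strand), a self-ligand receptor of the SLAM family on leukocytes, had the largest genotype difference of the 10 before LPS. BMDM-WT had 149, 125, 141 and 142 CPM at 0 h, and BMDM-Nur77-KO 34.2, 32.3, 39.1 and 35.1 CPM. At 1 h the levels were 303, 294, 266 and 302 CPM against 118, 107, 127 and 106 CPM, and at 5 h 2595, 2635, 2810 and 2768 CPM against 2192, 1962, 1588 and 1517 CPM. At 18 h they were 1594, 1793, 1912 and 1548 CPM against 1642, 1712, 1709 and 2115 CPM. The knockout was below the wild type in every library at 0, 1 and 5 h, by less each time, and overlapped it at 18 h. The log2 fold changes were -1.99 ± 0.11, -1.35 ± 0.10, -0.57 ± 0.10 and 0.07 ± 0.10, with adjusted p of 1.3e-14, 6.2e-11, 1.4e-04 and 0.68. The last value was -0.02 without replicate 4 of the knockout.

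Cd200r1 (chr16:44765736-44794977, plus strand), the inhibitory receptor for CD200, was the one member that LPS lowered at 5 h. Its levels in BMDM-WT were 147, 176, 144 and 144 CPM at 0 h, 151, 163, 158 and 173 CPM at 1 h, 76.1, 66.9, 66.4 and 81.2 CPM at 5 h, and 91.7, 91.9, 122 and 84.8 CPM at 18 h. In the knockout they were 244, 245, 257 and 211 CPM at 0 h, 193, 217, 211 and 216 CPM at 1 h, 132, 104, 76.9 and 82.5 CPM at 5 h, and 79.4, 76.3, 92.1 and 132 CPM at 18 h. The knockout was higher in every library at 0 and 1 h, and the groups overlapped afterwards. The log2 fold change was 0.65 ± 0.15 at 0 h (adjusted p = 0.0029) and 0.38 ± 0.15 at 1 h (adjusted p = 0.14). At 5 h it was 0.44 ± 0.15 (adjusted p = 0.032), and 0.28 without replicate 1 of the knockout (adjusted p = 0.22). The call at 5 h was also lost without replicate 2 of the knockout or replicate 1, 2 or 3 of BMDM-WT at 5 h. Cd200r1 has close paralogs beside it, among them Cd200r4, and reads between such copies can be split by the counting.

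**Figure D2:**
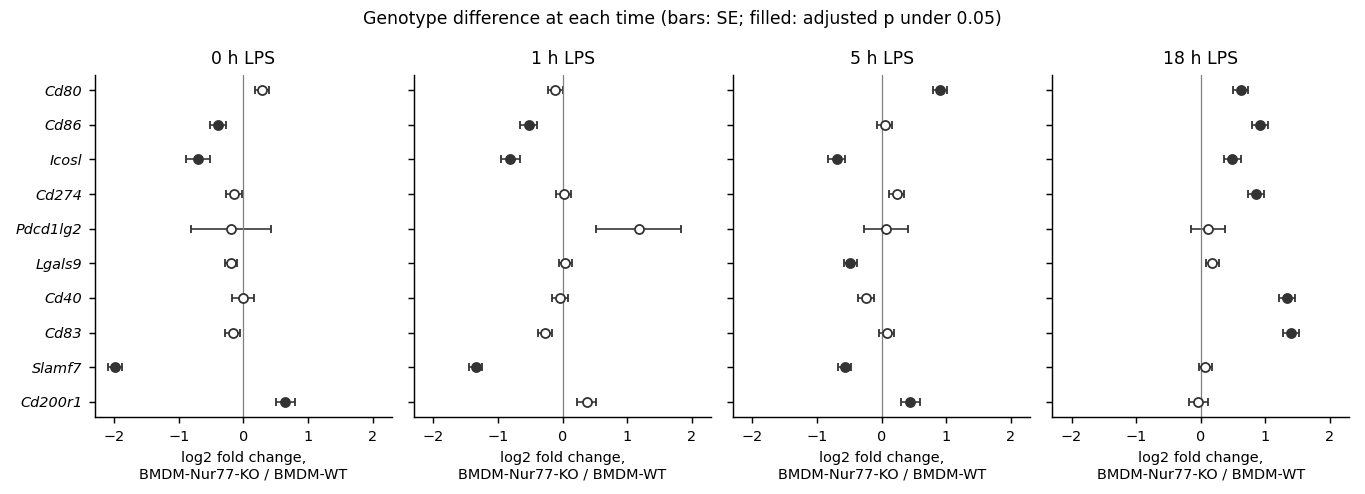
Log2 fold change of BMDM-Nur77-KO against BMDM-WT for the 10 genes at 0, 1, 5 and 18 h of LPS; bars are SE and filled points have an adjusted p under 0.05. Slamf7 moves from -1.99 at 0 h to 0.07 at 18 h, and at 18 h the 6 called genes all lie to the right of 0.

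Counted together, 4 of the 10 members differed between the genotypes at 0 h, where 12.7% of all genes tested were called, with Cd200r1 higher and Slamf7, Icosl and Cd86 lower. At 1 h, 3 of 10 differed (6.51% of all genes), and all of them, Slamf7, Icosl and Cd86, were lower, as were 3.04% of all genes. At 5 h, 5 of 10 differed (24.2% of all genes), with Cd80 and Cd200r1 higher and Slamf7, Icosl and Lgals9 lower. At 18 h, 6 of 10 differed (21.5% of all genes), and all 6, Cd83, Cd40, Cd86, Cd274, Cd80 and Icosl, were higher, a direction in which 11.7% of all genes were called. The median log2 fold change of the members was -0.18, -0.08, 0.06 and 0.55 at the 4 times, beside -0.03, -0.001, 0.02 and -0.01 over all genes tested. All 6 genes called at 18 h had groups that did not overlap, as 10.8% of all genes did with the knockout higher. Without the 2 libraries furthest from their groups, a setting chosen after seeing the data, the counts were 6, 4, 4 and 7. The share of all genes called in that setting was not computed, so these counts cannot be read against it.

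Summed levels of marker genes also stood apart between the genotypes. At 18 h the summed level of the 6 dendritic cell markers was 5.77 to 7.29 CPM in BMDM-WT and 14.1 to 21.9 CPM in BMDM-Nur77-KO, with 2 of the 6 among the genes tested and with Flt3 and Cd209a at no more than 3 counts in any library of either genotype. The sum of the 6 macrophage markers was lower in the knockout after LPS, with 6006 to 6651 CPM in BMDM-WT and 5364 to 5985 CPM in BMDM-Nur77-KO at 1 h, 6700 to 7194 against 5557 to 6285 CPM at 5 h, and 8963 to 9147 against 6558 to 7769 CPM at 18 h, whereas the genotypes overlapped at 0 h. The 6 neutrophil markers, of which 3 were tested and Ly6g and Elane had no more than 3 counts in any of these libraries, summed to 24.5 to 32.9 CPM in BMDM-WT and 36.1 to 43.6 CPM in BMDM-Nur77-KO at 1 h, and overlapped at the other times. The summed T cell markers overlapped at each time. Of these, Cd3e, Cd3d, Cd3g and Cd8a had no more than 3 counts in any BMDM-Nur77-KO library. In BMDM-WT this held for Cd3d at 0 and 1 h, for Cd3e and Cd3d at 5 h and for no T cell marker at 18 h. The part of the marker differences in those of the members was not tested.

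The response to LPS was asked in each genotype against its own 0 h libraries, which the 3 times share. In BMDM-WT at 1 h, 7 of the 10 members had risen and none had fallen, where 20.3% of all genes were called and 10.2% were higher. The log2 fold changes were 3.51 ± 0.15 for Cd40, 3.37 ± 0.12 for Cd83, 1.96 ± 0.15 for Icosl, 1.82 ± 0.13 for Cd274, 1.06 ± 0.10 for Slamf7, 0.82 ± 0.11 for Cd80 and 0.43 ± 0.13 for Cd86. Cd86 lost its call when replicate 1 or 2 of BMDM-WT at 0 h was left out, with adjusted p of 0.053 and 0.055. In BMDM-Nur77-KO, 6 of 10 had risen at 1 h (12.2% of all genes were called and 6.86% were higher), namely Cd40, Cd83, Cd274, Icosl, Slamf7 and Cd80. Cd86 was not called there, and its log2 fold change was 0.31 ± 0.13 (adjusted p = 0.16).

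At 5 h all 10 members had changed in BMDM-WT, as had 70% of all genes tested, so the size says more than the count. The rises ran from 8.62 ± 0.17 for Cd40 and 5.69 ± 0.15 for Cd274 through 4.28 ± 0.11 for Slamf7 to 1.5 ± 0.11 for Cd80, and Cd200r1 fell by 1.07 ± 0.15 on the log2 scale. The median of the members was 3.14, beside -0.15 over all genes tested. All 10 had changed in the same directions in BMDM-Nur77-KO, where 71.3% of all genes were called and the median of the members was 3.40. With total counts in place of TMM, the median of all genes at 5 h was -0.78 in BMDM-WT and -0.74 in BMDM-Nur77-KO, so these responses are relative to TMM scaling.

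At 18 h, 9 of 10 members differed from 0 h in BMDM-WT (66.3% of all genes) and 8 of 10 in BMDM-Nur77-KO (69.2%). Cd40, Cd274, Slamf7, Pdcd1lg2, Lgals9, Icosl and Cd86 were higher than at 0 h and Cd200r1 lower in both. Pdcd1lg2 is in these counts, although the filter itself favours this direction for it. Cd83 fell by 1.54 ± 0.12 in BMDM-WT (adjusted p = 6.6e-13), and in BMDM-Nur77-KO its log2 fold change was 0.03 ± 0.11 (adjusted p = 0.83). With total counts in place of TMM, this last value was -0.42 (adjusted p = 0.0023), beside a median over all genes of -0.48. Cd80 did not differ from 0 h in either genotype by the test, with log2 fold changes of -0.13 ± 0.12 in BMDM-WT and 0.21 ± 0.11 in BMDM-Nur77-KO. With total counts both were lower than at 0 h, with -0.50 (adjusted p = 9.6e-05) and -0.25 (adjusted p = 0.027).

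Whether the response itself differed between the genotypes was tested as the interaction of genotype and time. At 1 h, 0 of 10 members passed edgeR's test (0.0709% of all genes did), 2 of 10 had an unadjusted p under 0.05, and DESeq2 called 1 of 10. At 5 h, 2 of 10 passed (3.1% of all genes), Slamf7 with 1.41 ± 0.14 and Cd80 with 0.61 ± 0.16. The Cd80 value had an adjusted p of 0.024, and 0.059 with its second transcript. It also lost the call when 1 of 5 libraries was left out, namely replicate 1 or 3 of BMDM-Nur77-KO at 0 h, replicate 2 of BMDM-Nur77-KO at 5 h, replicate 1 of BMDM-WT at 0 h or replicate 2 of BMDM-WT at 5 h, with values from 0.51 to 0.60 and adjusted p of 0.050 to 0.078.

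At 18 h, 7 of 10 members responded differently in the knockout (9.4% of all genes). The interaction was positive for 6 members, which means a higher log2 fold change from 0 h in the knockout. It was 2.05 ± 0.14 for Slamf7, 1.57 ± 0.16 for Cd83, 1.34 ± 0.21 for Cd40 and 1.32 ± 0.18 for Cd86. For Icosl it was 1.19 ± 0.23 and for Cd274 1.01 ± 0.18. The Cd83 value came with a fall from 0 h in BMDM-WT (-1.54) and no called change in BMDM-Nur77-KO (0.03), not with a larger rise. The response of Cd200r1 was lower by a log2 value of -0.68 ± 0.21 (adjusted p = 0.031). The Cd200r1 call was lost when any 1 of 10 libraries was left out, with adjusted p of 0.053 to 0.092, and the highest p came without replicate 3 of BMDM-WT at 18 h. The Slamf7 interaction came with overlapping levels at 18 h and separate ones at 0 h, whereas those of Cd40, Cd83 and Cd274 came with overlapping levels at 0 h and separate ones at 18 h. For Cd86 and Icosl, the genotype difference was negative at 0 h and positive at 18 h. The median over the 10 members was 1.1, beside 0.02 over all genes tested.

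**Figure D3:**
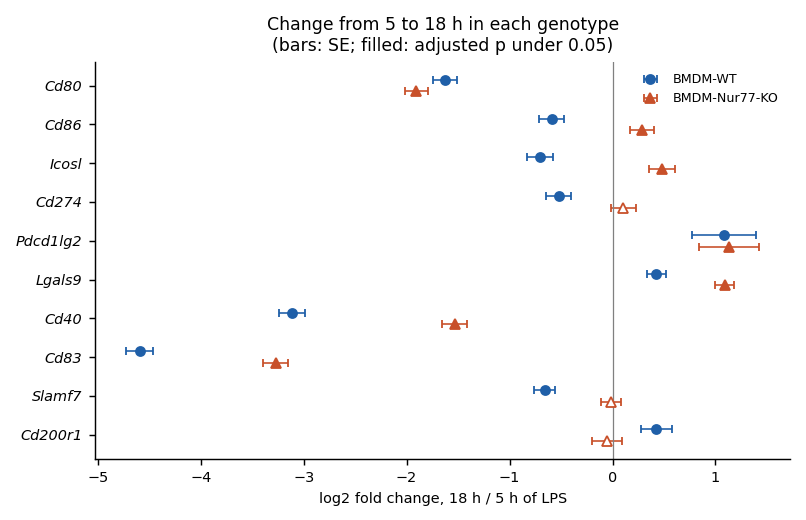
Log2 fold change of 18 h against 5 h of LPS for the 10 genes in BMDM-WT (circles) and BMDM-Nur77-KO (triangles); bars are SE and filled points have an adjusted p under 0.05. In BMDM-WT, 7 genes lie left of 0, among them Cd83 at -4.59; in BMDM-Nur77-KO, Cd83, Cd80 and Cd40 are the called genes left of 0.

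From 5 to 18 h, all 10 members changed in BMDM-WT (69.1% of all genes), and 7 fell, as did 33.2% of all genes. The falls were 4.59 ± 0.13 for Cd83, 3.11 ± 0.13 for Cd40 and 1.63 ± 0.12 for Cd80 on the log2 scale, beside log2 fold changes of -0.70 ± 0.13 for Icosl, -0.66 ± 0.10 for Slamf7, -0.59 ± 0.12 for Cd86 and -0.52 ± 0.12 for Cd274. Pdcd1lg2, Lgals9 and Cd200r1 rose. For Pdcd1lg2 the filter on low values itself favours a rise to 18 h in both genotypes. In BMDM-Nur77-KO, 7 of 10 changed (68.8% of all genes). Cd83 fell by 3.27 ± 0.12, Cd80 by 1.91 ± 0.11 and Cd40 by 1.53 ± 0.12, whereas Icosl rose by 0.48 ± 0.13, Lgals9 by 1.09 ± 0.10, Pdcd1lg2 by 1.13 ± 0.29 and Cd86 by 0.28 ± 0.12. The rise of Cd86 (adjusted p = 0.036) was not called without replicate 4 of the 18 h knockout (0.15, adjusted p = 0.26), nor without replicate 3 or 4 of the 5 h knockout. Cd274 had 0.10 ± 0.12 and passed the test without replicate 1 of the 5 h knockout (0.27, adjusted p = 0.025). The rise of Cd200r1 in BMDM-WT (0.43 ± 0.15) lost its call without replicate 3 of BMDM-WT at 18 h (0.30, adjusted p = 0.082). Whether the change from 5 to 18 h differed between the genotypes was not tested.

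The order of the groups by mean level differed between the members, and many neighbours in it overlapped. For Cd80, BMDM-Nur77-KO at 5 h (83.0 CPM) stood above BMDM-WT at 5 h (44.5 CPM), which stood above BMDM-WT at 1 h (27.8 CPM), each apart from the next, and from there down all neighbours overlapped. For Slamf7, BMDM-WT at 5 h (2702 CPM) came first, and BMDM-Nur77-KO at 5 h, BMDM-Nur77-KO at 18 h and BMDM-WT at 18 h followed as overlapping neighbours. The 3 highest groups of Cd86, and likewise of Cd274, were BMDM-Nur77-KO at 18 h, BMDM-Nur77-KO at 5 h and BMDM-WT at 5 h, and these overlapped.

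Promoters were read for the members that the RefSeq promoter table (GRCm38.p6) holds, which are Cd80, Icosl, Cd274, Pdcd1lg2, Lgals9 and Slamf7, 6 of the 10. The letters of 5 motifs were searched for in the 250 bases before the start site, as exact matches on both strands. They were the kappa B motif of NF-kB, the AP-1 motif TGANTCA, the interferon-stimulated response element (ISRE), the gamma-activated site TTCNNNGAA and the Nur77 response element (NBRE) AAAGGTCA. AP-1 and the gamma-activated site read the same on both strands, and no match overlapped another. Of all 32851 promoters, 3.9%, 6.75%, 2.98%, 7.02% and 1.34% held a match. The promoters of Cd80 and Slamf7 each held 1 AP-1 match, in both at positions -42 to -36 from the start site, Lgals9 held 1 interferon-stimulated response element at -55 to -46, and Pdcd1lg2 held 1 kappa B match at -244 to -235. The letters searched for are not in this window of Icosl or Cd274, and those of the NBRE are in none of the 6. The 4 windows with a match are shown, with the match in capitals. They are Cd80 (chr16:38458683-38458932, plus strand), Slamf7 (chr1:171649000-171649249, minus strand), Lgals9 (chr11:78984925-78985174, minus strand) and Pdcd1lg2 (chr19:29410669-29410918, plus strand), each written 5′ to 3′. The start sites of this table for Cd80, Slamf7 and Cd274 lie inside the gene spans given above and not at their outer end, so these windows lie inside the annotated gene.
Cd80: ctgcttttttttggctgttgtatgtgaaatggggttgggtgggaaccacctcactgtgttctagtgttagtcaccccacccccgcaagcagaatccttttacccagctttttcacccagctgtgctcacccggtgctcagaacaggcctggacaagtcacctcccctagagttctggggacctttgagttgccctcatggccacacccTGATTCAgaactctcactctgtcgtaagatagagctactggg
Slamf7: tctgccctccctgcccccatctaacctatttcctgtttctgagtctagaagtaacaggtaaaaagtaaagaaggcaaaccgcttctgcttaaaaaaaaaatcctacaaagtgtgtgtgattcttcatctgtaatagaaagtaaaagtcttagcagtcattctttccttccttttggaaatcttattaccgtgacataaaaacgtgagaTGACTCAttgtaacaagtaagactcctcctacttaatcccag
Lgals9: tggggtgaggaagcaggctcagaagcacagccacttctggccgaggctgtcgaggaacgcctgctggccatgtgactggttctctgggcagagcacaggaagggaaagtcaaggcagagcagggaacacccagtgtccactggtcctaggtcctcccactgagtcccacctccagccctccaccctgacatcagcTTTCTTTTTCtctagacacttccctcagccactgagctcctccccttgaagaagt
Pdcd1lg2: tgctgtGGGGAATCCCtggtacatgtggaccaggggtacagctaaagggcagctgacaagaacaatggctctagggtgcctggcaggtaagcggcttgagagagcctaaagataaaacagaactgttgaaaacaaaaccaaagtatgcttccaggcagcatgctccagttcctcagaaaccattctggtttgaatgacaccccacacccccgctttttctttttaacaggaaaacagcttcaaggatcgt
A match is a description of these letters and not of binding.

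Position gave a further description. Cd86, Cd80 and Cd200r1 lie on chromosome 16, with 1.79 Mb between Cd80 and Cd86 and 6.27 Mb between Cd80 and Cd200r1. Slamf7 lies in the SLAM gene cluster of chromosome 1. Of the 49 genes tested within 1 Mb of it, 22 (44.9%) were called between the genotypes at 0 h, 19 of them lower in the knockout, where 12.7% of all genes were called. After 1, 5 and 18 h of LPS the shares were 42.9%, 53.1% and 59.2%, where 6.51%, 24.2% and 21.5% of all genes were called. Among these neighbours, Cd244a lay lower with -2.31 ± 0.44 at 0 h, Slamf8 with -0.81 ± 0.10 and Slamf9 with -0.56 ± 0.12, whereas Ly9, Cd48 and Cd84, which flank Slamf7 more closely than Slamf8 and Slamf9 do, were not called at 0 h. Around the other 9 members, the share of neighbours called at 0 h ran from 0% for Cd274 and Pdcd1lg2 to 42.9%, 3 of 7 genes, for Cd83. The part of position in the Slamf7 difference was not tested.

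**Figure D4:**
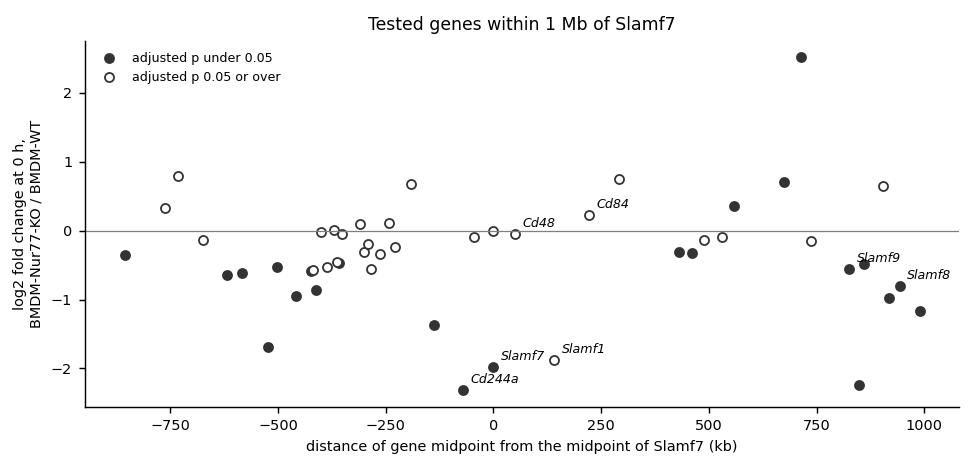
Log2 fold change of BMDM-Nur77-KO against BMDM-WT at 0 h for Slamf7 and the 49 genes tested within 1 Mb of it, against the distance of their midpoints in kb; filled points have an adjusted p under 0.05. Of the 22 filled neighbours, 19 lie below 0, on both sides of Slamf7.

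Related genes were followed in a list of 47 with the counter-receptors of the members, other B7, SLAM and TNF superfamily molecules, adaptors of CD40, and nectin, SIRP and leukocyte immunoglobulin-like genes, of which 36 were tested. Between the genotypes, 10 of 36 were called at 0 h (5 higher, 5 lower), beside 12.7% of all genes, and 11 were called at 1 h (6 higher, 5 lower), beside 6.51%. The number was 21 at 5 h, of which 12 were higher, beside 24.2% of all genes, and 22 at 18 h, of which 15 were higher, beside 21.5%. Their median log2 fold change was -0.05, -0.04, 0.16 and 0.17. The list was chosen with earlier results of these data known. Cd244a, Sh2d1b1 and Tnfrsf9 passed the filter on low values only through BMDM-WT groups, and Cd276 only through BMDM-Nur77-KO groups. The filter itself thus favours that direction for them, and their values below are a description. They were left in these counts. Of the genes called lower at 0 and 1 h, Sh2d1b1, Cd244a, Slamf8 and Slamf9 start between 170.28 and 172.58 Mb of chromosome 1. The part of position in these counts was not tested.

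At 0 h the related genes furthest above the wild type were Cd200 with 1.47 ± 0.18, Tnfsf4 with 1.32 ± 0.32, Tnfsf8 with 1.25 ± 0.15 and Cd200r4 with 1.09 ± 0.16. Cd200, the ligand of CD200R1, had 12.5 to 13.8 CPM in BMDM-Nur77-KO and 4.09 to 5.40 CPM in BMDM-WT, and it was also called higher at 1, 5 and 18 h. Cd200r1, Cd200r4 and Cd200 start at 44.77, 44.81 and 45.38 Mb of chromosome 16. Of the 14 genes tested within 1 Mb of Cd200r1, 3 (21.4%) were called at 0 h, all higher, where 12.7% of all genes were called. The part of position in these differences was not tested. The furthest below were Sh2d1b1, which encodes the SLAM receptor adaptor EAT-2, with 0.09 to 0.61 CPM against 4.07 to 4.92 CPM, then Cd244a, Tnfsf14 with -1.5 ± 0.37 and Slamf8. At 1 h Tnfsf15 (0.94 ± 0.19), Cd200 (0.94 ± 0.18), Tnfsf8 (0.89 ± 0.15) and Cd200r4 (0.64 ± 0.16) were furthest above, and Sh2d1b1 (-3.36 ± 0.41), Cd244a (-3.19 ± 0.50), Cd28 (-0.67 ± 0.11) and Slamf8 (-0.61 ± 0.10) furthest below.

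At 5 h the SLAM gene Slamf1, hardly detected at 0 h, had 41.7 to 49.5 CPM in BMDM-Nur77-KO and 14.0 to 16.3 CPM in BMDM-WT (1.56 ± 0.13). Next were Slamf6 (1.29 ± 0.48, with 6 to 14 counts against 1 to 8 and groups that overlapped), Pvr (1.04 ± 0.09) and Tnfsf4 (0.90 ± 0.12). Tnfsf4 encodes OX40 ligand and Pvr the ligand of TIGIT and CD226. Below the wild type were Cd244a (-1.83 ± 0.36), Tnfrsf9 (-1.41 ± 0.26), Slamf8 (-1.32 ± 0.10) and Tnfrsf14 (-0.65 ± 0.21). At 18 h the TNF superfamily ligands Tnfsf18 (3.05 ± 0.54, with 7 to 18 counts against 0 to 4) and Tnfsf15 (2.01 ± 0.18), with Slamf1 (2.20 ± 0.13) and Tnfsf8 (1.40 ± 0.21), were furthest above. Sh2d1b1 (0 to 2 counts against 46 to 74), Cd244a (-3.44 ± 0.31), Slamf8 (-0.81 ± 0.10) and Cd28 (-0.79 ± 0.14) were furthest below. Of the 5 adaptors of CD40, 4 were called higher in the knockout at 18 h, as were 11.7% of all genes. The values were 0.97 ± 0.10 for Traf5, 0.92 ± 0.14 for Traf1, 0.31 ± 0.10 for Traf3 and 0.23 ± 0.06 for Traf6. At 5 h Traf1 and Traf2 were lower, where 24.2% of all genes were called either way. The adaptors were named after their values were seen.

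**Figure D5:**
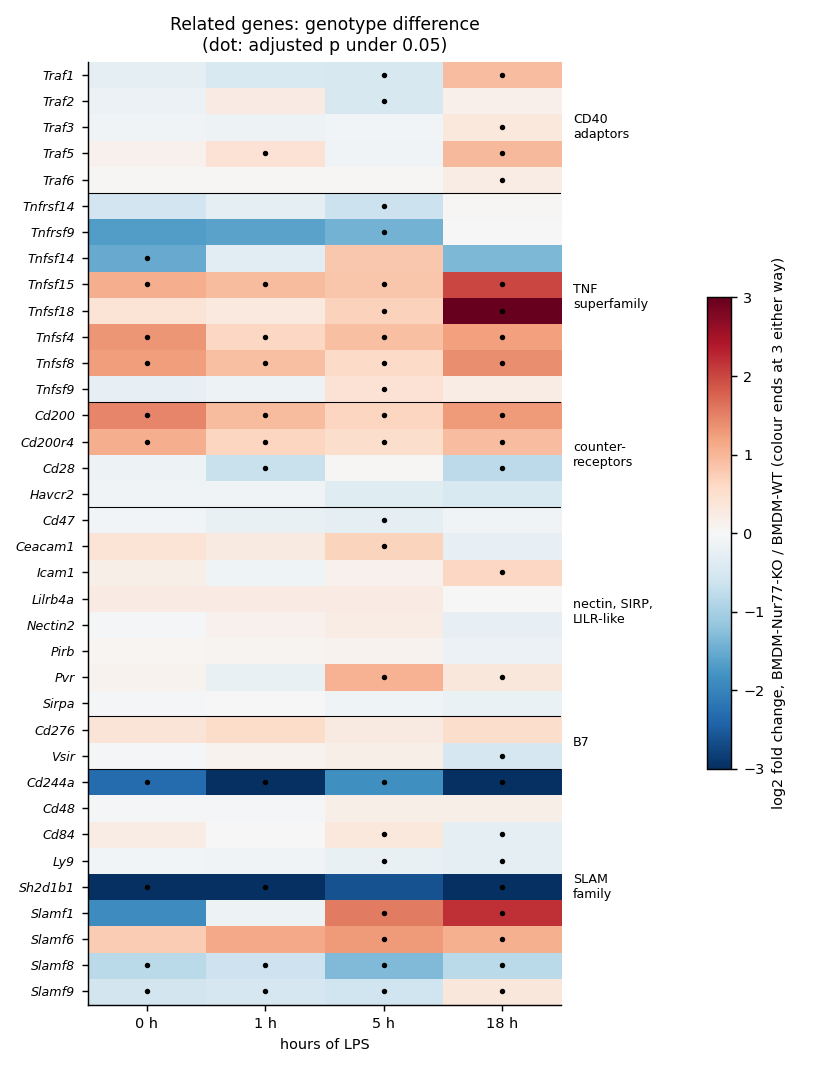
Log2 fold change of BMDM-Nur77-KO against BMDM-WT (colour) of the 36 related genes tested, by group of genes and hours of LPS; a dot marks an adjusted p under 0.05, and colours end at 3 either way. Cd244a is blue and dotted at each time, and Cd200, Cd200r4, Tnfsf4, Tnfsf8 and Tnfsf15 are red and dotted at each time.

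In BMDM-WT, LPS changed 14 of the 36 related genes at 1 h (20.3% of all genes), all upwards and led by Tnfsf9 (7.81 ± 0.15), Tnfsf4 (6.01 ± 0.21), Traf1 (3.43 ± 0.20) and Icam1 (2.75 ± 0.12). At 5 h it changed 34 (24 up), beside 70% of all genes, with Tnfsf4 (8.56 ± 0.20), Tnfsf15 (6.99 ± 0.23), Traf1 (6.83 ± 0.21) and Slamf1 (6.42 ± 0.24) furthest up and Sh2d1b1 (-3.59 ± 0.42), Cd28 (-2.15 ± 0.12), Vsir (-2.02 ± 0.14) and Tnfsf14 (-1.73 ± 0.43) furthest down. At 18 h it changed 31 (24 up), beside 66.3% of all genes, with Traf1 (6.13 ± 0.20), Slamf1 (5.64 ± 0.25), Tnfrsf9 (3.98 ± 0.49) and Slamf6 (3.73 ± 0.29) furthest up and Cd28 (-3.21 ± 0.12), Tnfsf14 (-2.66 ± 0.46), Cd276 (-2.65 ± 0.28) and Tnfsf18 (-2.37 ± 0.58) furthest down. Slamf6 passed the filter on low values only through its 18 h groups, so the filter itself favours a rise to 18 h for it. Slamf1 passed it only through its 5 and 18 h groups, and Tnfsf14 only through its 1 h groups. Tnfsf4, Tnfsf18 and Tnfrsf9 also passed it only through groups given LPS. For these genes too the filter favours a rise from 0 h to the times at which they passed, and such rises are a description. They were left in these counts.

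The response of the related genes differed between the genotypes for 5 of 36 at 5 h (3.1% of all genes) and 8 at 18 h (9.4%) in edgeR's test. At 1 h edgeR called 0 of 36 (0.0709% of all genes), 6 had an unadjusted p under 0.05, and DESeq2 called 0. At 5 h the genes called were Slamf1 (3.44 ± 0.74), Tnfsf14 (2.31 ± 0.62) and Pvr (0.94 ± 0.13) with a larger value in the knockout and Cd200 (-0.82 ± 0.24) and Slamf8 (-0.52 ± 0.14) with a smaller one. At 18 h Slamf1 (4.08 ± 0.74), Tnfsf18 (2.63 ± 0.68), Traf1 (1.20 ± 0.32) and Tnfsf15 (0.92 ± 0.29) were furthest above, and Cd28 (-0.64 ± 0.18) and Cd84 (-0.49 ± 0.14) below. Slamf1 and Tnfsf14 rest on few counts at 0 h, where Slamf1 had 0 to 4 counts per library, so the size of their fold changes is uncertain.

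The genes whose levels followed each member most closely over the 32 libraries are given as a description, with Pearson's r of log2(CPM + 1) and no test, since the libraries fall into 8 groups. Lgals9 went with Irf7 (r = 0.997) and Oas1a (0.996), Cd86 with Gbp7 (0.993) and Gbp3 (0.991), and Cd274 with Tnip1 (0.992) and Gbp5 (0.990). Cd40 went with Arid5a and Gch1 (both 0.995), Slamf7 with Ifi205 (0.987) and Trim30d (0.982), and Icosl with Stk40 (0.980) and Rnf19b (0.979). Cd83 went with Rcan1 (0.974) and Odc1 (0.971), Pdcd1lg2 with Slc31a2 (0.970) and Slfn4 (0.969), Cd80 with Aebp2 (0.968) and Vezf1 (0.965), and Cd200r1 with Crot (0.960) and Acsl3 (0.959). Among the members, Cd86 and Cd274 were the closest pair (r = 0.975), Slamf7 and Cd200r1 the most opposed (r = -0.914), and Cd83 went with Cd80 (0.745) more than with any other member.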

How the data were processed

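Strand-specific RNA-seq libraries (KAPA mRNA HyperPrep) of BMDMs were analysed, 4 per genotype and time. The authors used HISAT2 2.1.0 and the mm10 genome for paired-end alignment and SAMtools to drop reads that mapped poorly, and HOMER then summed the tags of each RefSeq transcript; the deposited table holds expected counts without normalization, in steps of 0.5 since each mate adds 0.5. Whether counting used the strand is not given in the sources used here, so reads of genes that overlap Cd80, Cd274, Icosl or Slamf7 cannot be told apart from theirs. Of 42361 transcripts, 93 could not be named and were left out with 0.233% to 1.37% of the tags of a library. Counts were rounded to whole numbers.

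Counts were scaled with TMM and tested with edgeR 4.0.16 (R 4.3.3), with glmQLFit and glmQLFTest in a single model of the 8 groups, on 11279 genes, those whose group mean passed an RPKM of 1 somewhere among the groups. P-values were adjusted over these with the Benjamini-Hochberg method, and the adjusted p in the text is of this test unless another is named. Errors beside log2 fold changes are SE. The interaction compares the change from 0 h between the genotypes. Transcript lengths came from GENCODE M21. Alternatives were DESeq2 1.42.0, its size factors, filterByExpr, no filter, a fit to the groups compared, a replicate block (also within genotype), a limit on the log2 fold change (0.58 between genotypes, 1 between times), the second transcript and leaving out each library; total counts without TMM and a fit without 2 libraries were added after seeing the data. The fit was tested on simulated data.

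The genes named are the 10 members, Nr4a1, up to 4 related genes each way per comparison by the size of the log2 fold change among those called, and the 2 genes with the highest correlation with each member. The adaptors of CD40 and the neighbours of Slamf7 were named after their values were seen. The members and lists were chosen with earlier results of these data known. Summed markers per library ran from 1.53 to 4.75 CPM for B cells, 12.2 to 49.1 for T cells and 15.3 to 45.4 for neutrophils, with Ly6g and Elane at no more than 3 counts in any library. Groups came from the sample labels, and no pair of libraries of a group was identical.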

Additional observations from a re-analysis of the deposited data

Results flagged for a closer look

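In 6 of the 80 sets of 4 libraries tested with Dixon's criterion, 1 library lay far from the other 3, and chance gives about 1 in 20. In replicate 4 of BMDM-Nur77-KO at 18 h, Cd86 had 426.4 CPM (300.1 to 306.6 in the others), Cd274 5971 CPM (4384 to 4451) and Slamf7 2115 CPM (1642 to 1712). In replicate 1 of BMDM-Nur77-KO at 5 h, Lgals9 had 303.6 CPM (454.8 to 471.5) and Cd83 583.8 CPM (776.7 to 805.6). In replicate 2 of BMDM-WT at 0 h, Cd200r1 had 176.4 CPM (143.5 to 147.4). The first 2 of these libraries are those furthest from their groups over all genes, and Cd86 and Cd274 stayed called at 18 h without replicate 4.

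The LPS response differed between the genotypes by the interaction test, on the log2 scale, for Cd80 (0.611) and Slamf7 (1.411) at 5 h. At 18 h it differed for Slamf7 (2.053), Cd83 (1.565), Cd40 (1.341), Cd86 (1.318), Icosl (1.191), Cd274 (1.009) and Cd200r1 (-0.683).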

How the results depend on the processing

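The 6 members called higher in BMDM-Nur77-KO at 18 h numbered 6 under DESeq2, its size factors, both other filters, the replicate block and each left-out library. Icosl, with 0.488, was lost under the limit of 0.58 on the log2 fold change, and it was not called with total counts. Over all settings other than a left-out library, 1528 values kept direction and side of the threshold, 35 lost the call, 17 gained it and 15 changed sign, and with 1 library left out these were 1358, 32, 6 and 44; the cause was not tested. Counts that moved by over 1.5 times were as follows. With only the groups compared, members differing between genotypes were 5 at 1 h and 3 at 5 h, members with another response were 1 at 1 h and 1 at 5 h, and related genes at 5 h were 10. With the limit on the log2 fold change, members at 5 h were 2, members from 5 to 18 h in BMDM-WT 4, related genes at 5 h 13 and related genes at 1 h in BMDM-WT 9. Members with another response at 1 h were 1 with DESeq2, with total counts and without both far libraries, and at 5 h 1 with the second transcript and 1 with the replicate block within genotype (1 to 2 with a library left out).

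None of the following sign changes was called in the test reported. Cd40 at 0 h between genotypes was 0.020 with DESeq2 and its size factors and 0.021 with only the groups compared. The response of Icosl at 5 h was -0.003 with filterByExpr, -0.008 with the block within genotype and -0.016 with only the groups compared. Without both far libraries, Cd86 at 5 h was -0.087 and Slamf7 at 18 h -0.021. With total counts, 18 h against 0 h in BMDM-Nur77-KO was -0.248 for Cd80 and -0.417 for Cd83, 1 h against 0 h in BMDM-WT -0.074 for Cd200r1, 18 h against 5 h in BMDM-Nur77-KO 0.130 for Cd200r1 and 0.168 for Slamf7, the response of Cd40 at 1 h 0.001, and Slamf7 between genotypes at 18 h -0.038.

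With 1 library left out, values between genotypes ran from -0.098 to 0.061 (Cd40, 0 h), -1.429 to 0.14 (Pdcd1lg2, 0 h), -0.102 to 0.081 (Cd274, 1 h), -0.121 to 0.056 (Cd40, 1 h), -0.087 to 0.129 (Cd86, 5 h), -0.173 to 0.269 (Pdcd1lg2, 5 h), -0.239 to 0.088 (Cd200r1, 18 h) and -0.021 to 0.125 (Slamf7, 18 h). Responses ran from -0.117 to 0.06 (Cd40, 1 h), -0.203 to 0.013 (Cd83, 1 h), -0.078 to 0.136 (Icosl, 5 h), -0.073 to 1.496 (Pdcd1lg2, 5 h) and -0.026 to 1.543 (Pdcd1lg2, 18 h). In BMDM-Nur77-KO, 18 h against 5 h ran from -0.256 to 0.113 (Cd200r1), -0.019 to 0.273 (Cd274) and -0.105 to 0.087 (Slamf7), and Cd83 at 18 h against 0 h from -0.011 to 0.068.

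Replicate numbers are shared between groups. The deviations of same-numbered libraries had a median correlation of -0.0264 within genotype (9 of 48 pairs over 0.1, range -0.786 to 0.557). Across genotypes the median was -0.00324 (22 of 64, range -0.501 to 0.51). These values cannot tell whether same-numbered libraries share mice or a batch, and the main test used no pairing. With the replicate block, 3, 3, 5 and 6 members differed between genotypes at 0, 1, 5 and 18 h, and Cd86 at 0 h had -0.396 (adjusted p = 0.056). Depth limits Pdcd1lg2, with 0 to 44 counts per library.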
